A study of Mus musculus with 14 samples.

Results

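The genes described here are 32 targets of the transcription factor ATF4 and genes of amino acid supply, taken by gene name from 27343 gene names on the array. They fall by role into 16 enzymes, 9 amino acid transporters and 7 stress regulators, and 29 of the 32 were among the 17727 genes bright enough to be tested. Where a gene had several probes, the probe with the highest mean signal stood for it.

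The arrays held total RNA of mouse myeloid progenitors, myeloid cells and haematopoietic stem cells, each from wild-type mice and from mice called Rheb1-/-. The Rheb1-/- mice carried Vav1-cre and Rheb1fl/fl, so that Cre, driven by the blood-lineage promoter of Vav1, removes Rheb1 throughout the blood system. The sources used here do not say whether the wild-type mice carried Cre, nor how old or how many the animals were. Progenitors and myeloid cells had 3 arrays per genotype, and stem cells had 1 array per genotype. Since animals are not named in the labels, p-values reflect only how far these samples spread, and part of that spread may be technical. Rheb1 (symbol Rheb) encodes a small GTPase that switches on mTORC1, a kinase complex that couples nutrient supply to protein synthesis.

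ATF4 is made when the initiation factor eIF2 is phosphorylated, by kinases that sense amino acid shortage, unfolded protein, double-stranded RNA or lack of haem, and this response is called the integrated stress response. mTORC1 also raises ATF4 protein. ATF4 pairs with C/EBP proteins on composite elements and switches on genes for amino acid synthesis, one-carbon metabolism and amino acid import, and a set of feedback and death regulators such as Ddit3, Trib3 and Chac1. Much of this control acts on the translation of Atf4 mRNA, which an array does not measure.

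The composite C/EBP-ATF element has the letters TGATGNAA, or TTNCATCA on the other strand. RefSeq promoter windows (GRCm38.p6, 250 bases before to 50 bases after the gene start) were matched for 27 of the 32 genes and searched on both strands. The element was found in 8 of the 27 genes (29.6%) and in 1219 of 27025 genes in the whole table (4.51%). The cyclic AMP response element TGACGTCA, which does not overlap it, was in none of the 27 genes and in 2.03% of all genes. The holders of the composite element were the enzymes Asns, Got1 and Pycr1, the transporters Slc7a11 and Slc1a4, and the stress regulators Trib3, Chac1 and Nupr1. Part of the list was taken as ATF4 targets, and ATF4 acts on this element, so its share is not independent of the choice of genes. The stretches of the 6 genes whose matches lie upstream of the start are shown because several genes hold the element. Each is given 5′ to 3′ on the strand of the gene, with the matches in capitals.
Asns, chr6:7693210-7693258, minus strand: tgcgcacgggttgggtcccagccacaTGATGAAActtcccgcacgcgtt
Got1, chr19:43524674-43524733, minus strand: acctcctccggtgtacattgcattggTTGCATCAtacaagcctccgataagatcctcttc
Pycr1, chr11:120643818-120643877, minus strand: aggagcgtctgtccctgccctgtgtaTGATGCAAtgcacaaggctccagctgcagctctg
Slc7a11, chr3:50443627-50443705, minus strand: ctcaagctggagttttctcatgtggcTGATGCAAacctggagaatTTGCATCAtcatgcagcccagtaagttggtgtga
Chac1, chr2:119351023-119351082, plus strand: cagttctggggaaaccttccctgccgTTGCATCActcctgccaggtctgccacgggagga
Nupr1, chr7:126625547-126625606, minus strand: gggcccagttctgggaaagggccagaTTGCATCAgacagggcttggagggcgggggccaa
Slc7a11, the cystine importer, was the only one of the 27 genes with 2 matches in its window, one on each strand. A match is a run of letters and not a shown binding site.

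Levels are given as log2 of the processed spot signal minus the 75th percentile of the same array, so a value of 0 equals that percentile, and a level of one probe is not comparable with that of another. Differences are in log2 units with their standard error from limma, and a gene is called at a Benjamini-Hochberg adjusted p under 0.05 over all 17727 genes. Between 58.5% and 67.6% of an array's spots exceeded background clearly, no spot was saturated, and replicates of a group correlated at 0.988 to 0.992 across genes. In myeloid cells that share was 65.9%, 67.2% and 65.7% in wild type and 62.3%, 60.9% and 60.8% in Rheb1-/-. It thus differed with genotype there, and its part in the results for dim genes was not tested. Each wild-type myeloid array lay on one slide and each Rheb1-/- myeloid array on another, so slide and genotype cannot be told apart there. Wild-type progenitors shared no slide with wild-type myeloid cells, so slide and cell type cannot be told apart in wild type either. The stem cell arrays lay on separate slides and were scanned on different days. In progenitors, 2 arrays of each genotype shared a slide, and 1 Rheb1-/- progenitor array shared the slide of the Rheb1-/- myeloid arrays. Wild-type progenitor array 1 lay on the slide of the wild-type stem cell array. It was scanned on a different day from all other progenitor and myeloid arrays. In progenitors and myeloid cells all Rheb1-/- arrays were below all wild-type arrays for Rheb itself, and its single stem cell arrays read 3.46 in wild type and 2.26 in Rheb1-/-. In myeloid cells it stood at 3.54, 2.93 and 2.80 in wild type and 2.16, 2.10 and 2.36 in Rheb1-/-, a fall of 0.89 ± 0.22 (SE, 3 arrays per genotype; limma adjusted p = 0.0116). For progenitors the Rheb difference of -1.08 ± 0.22 did not pass (limma adjusted p = 0.094), though without Rheb1-/- array 1 it did, at -1.30. The sources used here do not place the probe inside or outside the deleted part.

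In myeloid cells, 9 of the 29 tested genes were higher without Rheb1, 5 were lower and 15 did not pass the test. That is 48.3% of the genes, against 34.2% of all genes tested (16.5% higher and 17.7% lower). For 11 genes every Rheb1-/- array lay above every wild-type array and for 6 below, while 50% of all genes were separated in this way. Their median difference was 0.24, against -0.08 over all genes. The roles differed in their counts. Among 14 tested enzymes 5 were higher and 2 lower (median 0.30), among 8 transporters 3 were higher and none lower (median 0.30), and among 7 stress regulators 1 was higher and 3 were lower (median -0.23). The enzymes' median was 0.077 without wild-type array 3. In bulk RNA of this kind, fewer cells of a type and less RNA per cell cannot be told apart.

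Atf4 itself, the transcription factor, was the one stress regulator that rose in myeloid cells. Its probe (chr15:80087079-80087138, mm9) stood at 2.40, 2.33 and 2.20 on the wild-type arrays and at 2.90, 2.90 and 3.02 on the Rheb1-/- arrays. The genotypes did not overlap, and the difference was 0.63 ± 0.12 (SE, n = 3 per genotype; limma adjusted p = 0.00362), a 1.55-fold rise. The direction and the call held in all 24 alternatives tried, none of which could tell slide from genotype in myeloid cells.

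Of the other 6 stress regulators, 3 fell in myeloid cells, namely Chac1, Ddit4 and Trib3. Chac1 encodes an enzyme that degrades glutathione, and its probe lies at chr2:119179990-119180049 (mm9). It stood at 1.51, 1.20 and 1.46 in wild-type myeloid cells and at 0.55, 0.43 and 0.64 in Rheb1-/- cells. All 3 Rheb1-/- arrays were below all 3 wild-type arrays, and Chac1 fell by 0.85 ± 0.13 (SE; limma adjusted p = 0.00133), or 1.80-fold. Ddit4, also called REDD1, is an inhibitor of mTORC1 that acts upstream of Rheb. It read 1.83, 2.16 and 2.34 in wild type against 1.19, 1.53 and 1.43 in Rheb1-/-, again without overlap, a fall of 0.73 ± 0.18 (limma adjusted p = 0.0122). Trib3, a pseudokinase that ATF4 induces and that restrains it in turn, read -1.34, -1.30 and -1.01 against -1.97, -1.76 and -2.17. These groups did not overlap either, but the fall of 0.75 ± 0.26 only just passed (limma adjusted p = 0.0461). The Trib3 call was lost when any one of the 6 myeloid arrays, wild-type progenitor array 3 or Rheb1-/- progenitor array 3 was left out, with differences of -0.85 to -0.65 and adjusted p of 0.0561 to 0.135. A dimmer probe of Trib3 gave -1.23. The remaining 3 stress regulators did not pass: Atf5, a close relative of ATF4, differed by 0.08, Ddit3 (CHOP), a pro-death factor, by 0.04, and Nupr1, a small stress-induced chromatin protein, by -0.23.

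**Figure D1:**
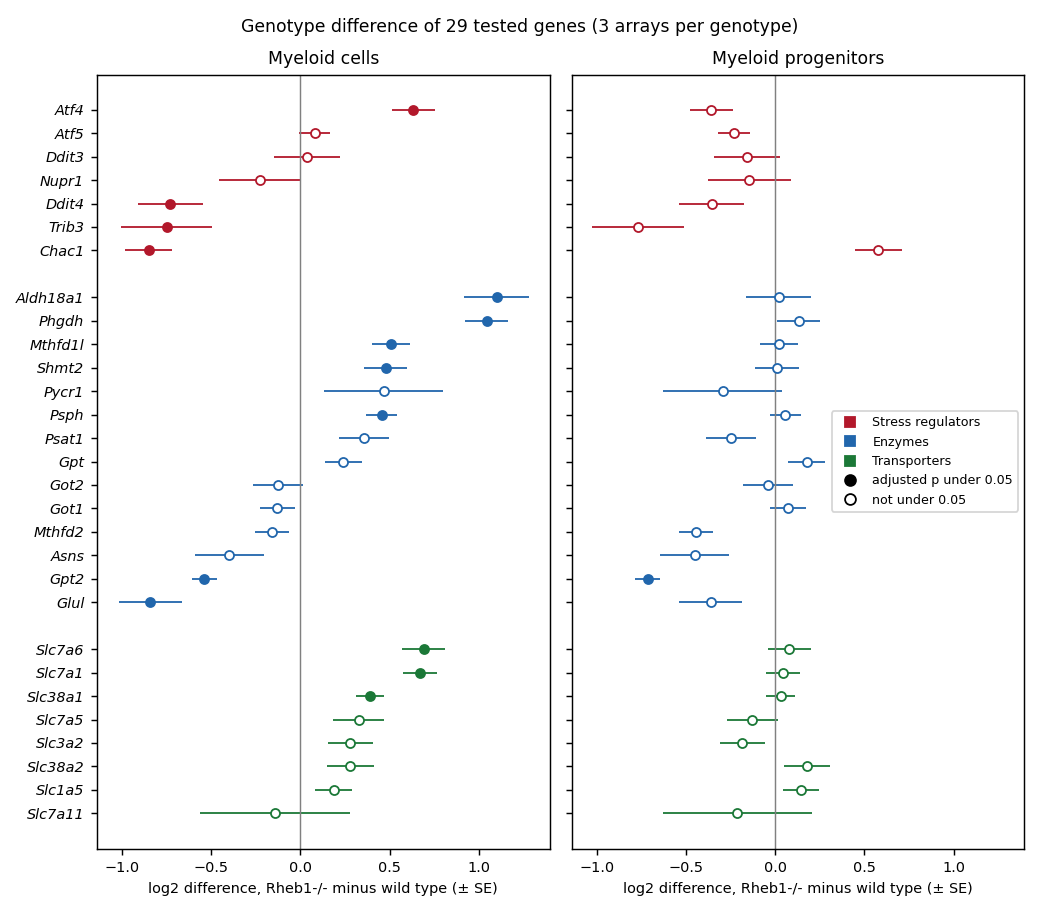
Difference between Rheb1-/- and wild type (log2, horizontal axis, with the standard error, n = 3 arrays per genotype) for the 29 tested genes, coloured by role, in myeloid cells (left) and progenitors (right); filled points passed at an adjusted p under 0.05. In myeloid cells 14 points are filled, from Aldh18a1 at 1.10 to Chac1 at -0.85, and in progenitors 1 is, Gpt2 at -0.71.

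Among the enzymes, the largest rises were at the entry steps of proline and serine synthesis. Aldh18a1 makes the pyrroline-5-carboxylate from which proline is formed, and Phgdh takes the first committed step from glycolysis to serine. Aldh18a1 read -2.26, -2.58 and -3.05 in wild-type myeloid cells and -1.69, -1.44 and -1.47 in Rheb1-/- cells, a rise of 1.10 ± 0.18 (SE; limma adjusted p = 0.00192), or 2.14-fold. Phgdh read 2.78, 2.67 and 2.39 against 3.65, 3.69 and 3.64, a rise of 1.04 ± 0.12 (limma adjusted p = 0.000425), or 2.06-fold. Neither gene's groups overlapped, and the other probes of Phgdh gave 0.77 and 0.74. The next enzymes of serine synthesis are Psat1 and Psph. Psph rose by 0.45 ± 0.09 (limma adjusted p = 0.00384), while Psat1 differed by 0.36 and did not pass with all arrays, though without wild-type array 1 it did, at 0.48.

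Serine feeds one-carbon units to folate in mitochondria through Shmt2, Mthfd2 and Mthfd1l. Shmt2 read 0.72, 0.50 and 0.26 in wild-type and 0.83, 1.12 and 0.95 in Rheb1-/- myeloid cells, a rise of 0.48 ± 0.12 (SE; limma adjusted p = 0.0143). Without Rheb1-/- array 2 its difference was 0.40 with an adjusted p of 0.0527. Mthfd1l, which releases formate, read 1.56, 1.83 and 1.52 against 2.01, 2.25 and 2.18, a rise of 0.51 ± 0.11 (limma adjusted p = 0.0055). The groups of both genes were separate, whereas those of Mthfd2, which sits between them in the pathway, overlapped, at a difference of -0.16.

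The enzymes that fell handle nitrogen. Glul, glutamine synthetase, read 3.24, 3.28 and 3.70 in wild-type myeloid cells and 2.92, 2.55 and 2.22 in Rheb1-/- cells, a fall of 0.84 ± 0.17 (SE; limma adjusted p = 0.00539), and its other 2 probes gave -0.51 and -0.66. Gpt2, the mitochondrial alanine aminotransferase, read -3.29, -3.12 and -3.20 against -3.71, -3.76 and -3.76, a fall of 0.54 ± 0.07 (limma adjusted p = 0.000647). All Rheb1-/- arrays lay below all wild-type arrays for both. Asns, the asparagine synthetase often taken as the standard ATF4 target, read 3.69, 3.92 and 3.59 against 3.04, 3.54 and 3.43. Those groups were separate as well, but the difference of -0.40 ± 0.19 did not pass (limma adjusted p = 0.137). The other 5 enzymes not called were Gpt, Got1, Got2, Pycr1 and Mthfd2, with differences from -0.16 to 0.47, and Gpt passed at 0.33 without Rheb1-/- array 1. Pycr1 was well above background on 9 of the 12 arrays tested.

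All 3 transporters that rose carry amino acids in across the plasma membrane or exchange them there. Slc7a1 (CAT1) imports arginine and lysine, Slc7a6 pairs with the heavy chain Slc3a2 to exchange basic for neutral amino acids, and Slc38a1 takes up glutamine with sodium. Slc7a1 read 0.09, 0.01 and -0.16 in wild-type and 0.56, 0.62 and 0.76 in Rheb1-/- myeloid cells, a rise of 0.67 ± 0.10 (SE; limma adjusted p = 0.00094). Its dimmer probe gave -0.14, and the mean of its probes did not pass, at 0.26. Slc7a6 read -3.04, -3.03 and -3.42 against -2.55, -2.52 and -2.35, a rise of 0.69 ± 0.12 (limma adjusted p = 0.00229). A second probe of Slc7a6 gave 0.69, while the mean of its probes, which includes a probe never above background, gave 0.31 and did not pass. Slc38a1 rose by 0.39 ± 0.08 (limma adjusted p = 0.00507), and of its other 4 probes 3 gave 0.25 to 0.47 and 1 gave -0.04.

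The 5 tested transporters that did not pass ranged from -0.14 for Slc7a11 to 0.33 for Slc7a5. Slc7a5 (LAT1) and its partner Slc3a2 (4F2hc) import leucine and other large neutral amino acids. Slc7a5 passed at 0.49 when wild-type array 2 was left out. Slc38a2 (SNAT2) differed by 0.28, by 0.35 to 0.71 at its other 3 probes and by 0.51 as the mean of its probes, which passed, as did the single probe without wild-type array 1 or Rheb1-/- array 2 (0.39 and 0.40). The probes of Slc7a11 disagreed: the brightest gave -0.14, and the other 3 gave -1.47, -1.84 and -0.82. The mean of the 4 was -1.07 with a limma adjusted p of 0.00522, so its call depended on which probe stood for the gene.

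**Figure D2:**
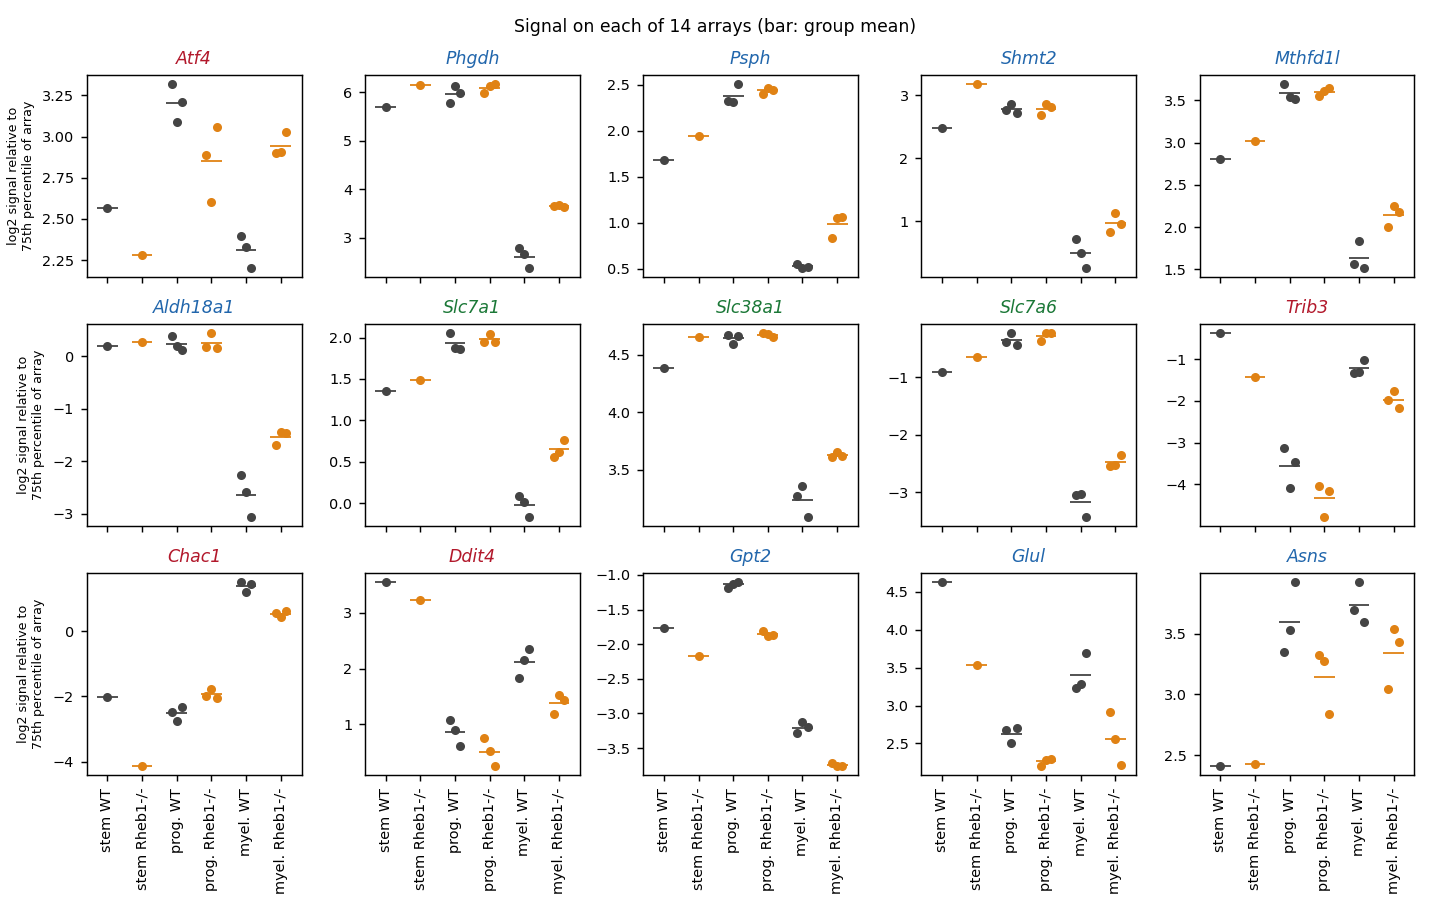
Level on each of the 14 arrays (log2 signal relative to the array's 75th percentile, vertical axis, a scale of its own in each panel) for the 14 genes called in myeloid cells and Asns, in the 6 groups; points are arrays, bars group means, grey wild type and orange Rheb1-/-. Atf4 in Rheb1-/- myeloid cells sits at 2.90 to 3.02, above wild-type myeloid cells at 2.20 to 2.40, and Phgdh in Rheb1-/- myeloid cells at 3.64 to 3.69 stays below its progenitor levels of 5.77 to 6.17.

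Markers of other cells moved in the same comparison. Of 8 progenitor markers 6 were higher in Rheb1-/- myeloid cells (median 1.00), and their summed signal, in multiples of the array's 75th percentile, was 605 to 731 in wild type and 1056 to 1465 in Rheb1-/-. Of 8 erythroid markers 7 were lower (median -1.97), with a summed signal of 697.5 to 1122 against 97.2 to 425.6. That sum was mostly Hba-a1, the one erythroid marker that did not pass, at -2.03 (limma adjusted p = 0.0532). Monocyte and macrophage markers were lower in 5 of 9 (median -0.44), megakaryocyte markers in 5 of 7, B cell markers in 5 of 7 and T and NK cell markers in 5 of 8, with 1 higher. Neutrophil markers were lower in 1 of 8 and none was higher. All 8 progenitor and all 8 measured erythroid markers were above background on every myeloid array, while Pax5 was never above background in myeloid cells, nor were Cd3g, Slamf1 and Cdh5 in Rheb1-/- myeloid cells. The part of these shifts in the results for the 29 genes was not tested.

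In progenitors, 1 of the 29 tested genes passed, against 0.0733% of all genes (0.0508% higher and 0.0226% lower, 13 genes in all). It was Gpt2, which read -1.18, -1.13 and -1.11 in wild type and -1.81, -1.88 and -1.86 in Rheb1-/-. The groups lay well apart, and Gpt2 fell by 0.71 ± 0.07 (SE, n = 3 per genotype; limma adjusted p = 0.00647), or 1.64-fold. Within the slide that held 2 arrays of each genotype the difference was -0.73 (limma adjusted p = 0.551), and no gene of the whole array passed there. With slide as a fixed term the limma adjusted p was 0.095, and 0.0226% of all genes passed. No gene of the 29 was called higher. The median of the 29 was -0.13, against 0.02 over all genes, and by role it was -0.02 for enzymes, -0.23 for stress regulators and 0.04 for transporters.

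The progenitor arrays separated some genes that did not pass. Of the 29 genes, 3 had all Rheb1-/- arrays above all wild-type arrays and 8 had them below, while 20.0% of all genes were separated in either direction. Atf4 read 3.32, 3.09 and 3.21 in wild type and 2.89, 2.60 and 3.06 in Rheb1-/-, a difference of -0.36 ± 0.12 (limma adjusted p = 0.283). Chac1 read -2.47, -2.74 and -2.33 against -2.00, -1.77 and -2.04, a difference of 0.58 ± 0.13 (limma adjusted p = 0.116). Both were separated but not called. No marker list had a called gene in this comparison, and the largest median shift among the lists was -1.52, for megakaryocyte markers.

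Whether the genotype difference was itself different in myeloid cells and progenitors was tested as an interaction. Since slide and genotype cannot be told apart in myeloid cells, they cannot be told apart in the interaction either. The interaction passed for 6 of the 29 genes, 5 with a more positive and 1 with a more negative difference in myeloid cells, against 10.9% of all genes (5.56% and 5.32%). Chac1 had an interaction of -1.43 ± 0.19 (limma adjusted p = 0.00818) and Atf4 one of 0.99 ± 0.17 (limma adjusted p = 0.0116). The progenitor values of both, -0.36 for Atf4 and 0.58 for Chac1, had the opposite sign to their myeloid values but did not pass on their own. Phgdh followed at 0.91 ± 0.17 (limma adjusted p = 0.0144). The calls of Atf4, Chac1 and Phgdh held in all 23 alternatives. Slc7a1 at 0.62, Aldh18a1 at 1.08 and Slc7a6 at 0.61 also passed, with limma adjusted p of 0.0221, 0.0296 and 0.0464, and each of these calls was lost when some single arrays were left out. The median interaction of the 8 tested transporters was 0.41, against -0.08 over all genes.

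Between cell types the roles parted. In wild type, 25 of the 29 genes differed between myeloid cells and progenitors, 7 higher and 18 lower in myeloid cells, against 77.7% of all genes tested (38.7% higher and 38.9% lower). The median difference was -1.90 for enzymes, -1.30 for transporters and 1.25 for stress regulators, against 0.05 over all genes. Of the 14 enzymes 10 were lower, of the 8 transporters 6, and of the 7 stress regulators 2, with 4 higher. In 9 genes all myeloid arrays lay above all progenitor arrays and in 18 below, and 80.0% of all genes were separated in either direction.

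The largest cell type differences among enzymes were in serine and proline synthesis. In wild-type myeloid cells against progenitors, Phgdh differed by -3.35 ± 0.12, or 10.2-fold (limma adjusted p = 1.12e-08), at a mean of 2.61 ± 0.20 (SD, n = 3) against 5.96 ± 0.18. Pycr1, which finishes proline, differed by -3.11 ± 0.33 (limma adjusted p = 1.08e-05). It was tested only because the progenitor arrays, where it is high, were above background, so its p-value is not independent of that filter. Only 2 of the 3 wild-type myeloid arrays were above background for it, and with normexp background correction its difference was -0.88. Aldh18a1 differed by -2.87 ± 0.18 (limma adjusted p = 2.2e-07). In transporters the largest difference went up: Slc7a11 was 3.95 ± 0.42 higher in myeloid cells, or 15.5-fold (limma adjusted p = 9.44e-06). Its progenitor arrays read -1.94, -2.81 and -1.25 and its myeloid arrays 1.44, 2.13 and 2.28. Of its other probes, one above background on every array gave 2.99, and the other two, above background on none or 1 of the wild-type progenitor arrays, gave 3.24 and 3.39. Slc7a6 and Slc7a5 were lower, at -2.80 ± 0.12 and -2.37 ± 0.14, and the mean of the probes of Slc7a6, one of them never above background, gave -1.61.

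In the stress regulators, Chac1 was 3.90 ± 0.13 higher in wild-type myeloid cells (limma adjusted p = 9.8e-09), Nupr1 3.77 ± 0.23 (limma adjusted p = 1.72e-07) and Trib3 2.34 ± 0.26 (limma adjusted p = 1.25e-05). For all 3 each myeloid array lay above each progenitor array. Atf4 itself was lower in wild-type myeloid cells, at -0.90 ± 0.12 (limma adjusted p = 5.8e-05).

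**Figure D3:**
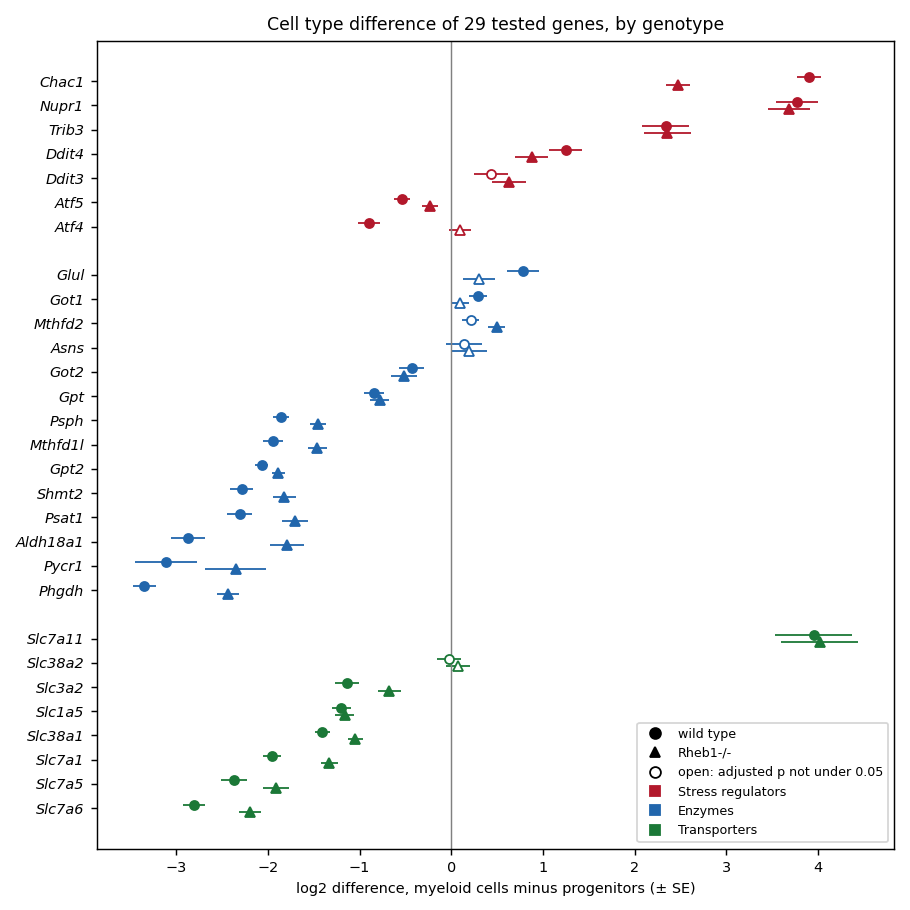
Difference between myeloid cells and progenitors (log2, horizontal axis, with the standard error, n = 3 arrays per group) for the 29 tested genes, in wild type (circles) and Rheb1-/- (triangles), coloured by role; open symbols did not pass. Enzymes and transporters lie mostly left of 0, down to -3.35 for Phgdh, while Slc7a11 at 3.95 and Chac1 at 3.90 lie far to the right.

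The same comparison within Rheb1-/- mice called 24 of the 29 genes, 7 higher and 17 lower, against 68.5% of all genes (29.5% and 39.0%). All myeloid arrays lay above all progenitor arrays for 7 genes and below for 16, against 73.2% of all genes in either direction. Medians were -1.46 for enzymes, -1.10 for transporters and 0.87 for stress regulators. Phgdh differed by -2.44 ± 0.12, Pycr1 by -2.35 ± 0.33 and Gpt2 by -1.89 ± 0.07, with limma adjusted p of 1.14e-07, 0.000117 and 4.74e-08. Pycr1 was above background on only 1 of the 3 Rheb1-/- myeloid arrays and again was tested only through the progenitors. Normexp gave -0.84 for Pycr1 and -1.11 for Gpt2. Slc7a11 was 4.02 ± 0.42 higher at its brightest probe, while its other probes gave 1.59, 2.48 and 2.80 and the mean of its probes 2.72. Slc7a6 and Slc7a5 were lower, at -2.19 ± 0.12 and -1.91 ± 0.14. Nupr1, Chac1 and Trib3 were 3.68 ± 0.23, 2.47 ± 0.13 and 2.36 ± 0.26 higher. For Trib3 the second probe gave 0.50, the mean of its probes 1.43 and normexp 1.32. Atf4 did not pass between these groups, at 0.09 ± 0.12 (limma adjusted p = 0.508), with myeloid arrays at 2.90 to 3.02 inside the progenitor range of 2.60 to 3.06. With slide as a fixed block, which rests on the one shared slide, 5 genes were higher and 15 lower, Mthfd2, Got2, Atf5 and Ddit3 no longer passed, and Atf4 differed by -0.11. The genotype and cell type comparisons share arrays, so these values stand side by side and are not independent of each other.

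The 3 untested genes were too dim. Cth and Cbs, the enzymes that turn homocysteine into cysteine, were well above background on 3 and 1 of the 12 arrays, and Slc1a4 (ASCT1), a carrier of small neutral amino acids, on 2. Where one group was never above background, the fold was taken against a floor. The floor was the dimmest signal of any probe above background on the same arrays, or the probe's own signal where that was higher. Slc1a4, above background on 2 of 3 wild-type progenitor arrays, read 2.17-fold lower in Rheb1-/- progenitors and 2.83-fold lower in wild-type myeloid cells. For Slc1a4 the probe's own signal was the higher, so these are plain differences and not bounds. Its second probe, above background on 1 Rheb1-/- progenitor array, gave log2 differences of -0.81 and -2.30. Cth was above background on 1 wild-type and 2 Rheb1-/- progenitor arrays. Against the floor it read 3.00-fold lower in myeloid cells in wild type and 2.04-fold lower in Rheb1-/-. The other progenitor readings in these means were themselves not above background, so these values are not bounds either. Cbs gave no usable bound.

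The wider pathway was taken as 52 further genes in 4 lists, of which 47 were tested. In myeloid cells 10 were higher and 11 lower without Rheb1, against 16.5% and 17.7% of all genes tested, and in progenitors none was called, against 0.0733%. Kinases, eIF2, eIF2B and phosphatase subunits that feed the stress response had 3 higher and 2 lower of 13, partner factors and other targets 2 higher of 9, other enzymes 5 higher and 4 lower of 16, and other transporters 5 lower of 9 with none higher. Among the 8 transporters described above, 3 rose and none fell at the brightest probe. As the mean of probes Slc7a11 was called lower (-1.07) and Slc38a2 higher (0.51). The rises of Slc7a1 and Slc7a6 did not pass in that form (0.26 and 0.31).

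Atf3, a stress-induced partner of ATF4, had the largest rise of the wider list. It read 1.94, 1.54 and 1.62 in wild-type myeloid cells and 3.67, 3.59 and 3.71 in Rheb1-/- cells, a rise of 1.96 ± 0.27 (limma adjusted p = 0.000792). Its difference in progenitors was -0.80 and did not pass, and its interaction was 2.76 (limma adjusted p = 0.00918). Ppp1r15a (GADD34), the phosphatase subunit that undoes eIF2 phosphorylation, rose by 1.03 ± 0.18 (limma adjusted p = 0.0027), from -0.35, -0.34 and -0.10 to 0.95, 0.67 and 0.67. In enzymes, cytosolic Shmt1 rose by 1.08 and Oat, which links ornithine to proline, by 0.52, with limma adjusted p of 0.00185 and 0.00199. The branched-chain aminotransferase Bcat1 was never above background in Rheb1-/- myeloid cells and was at least 2.79-fold lower there (limma adjusted p = 0.00399). In transporters, the glycine carrier Slc6a9 fell by 2.02 ± 0.28 (limma adjusted p = 0.000802), from 0.34, 1.11 and 1.30 to -0.74, -1.64 and -0.95. Slc7a8 (LAT2) fell by 1.05 and the taurine carrier Slc6a6 by 0.62, with limma adjusted p of 0.00117 and 0.00382.

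The promoter element and the myeloid calls can be set side by side. None of the 8 genes that rose and had a promoter window held the element, 2 of the 5 that fell did (Trib3 and Chac1), and 5 of the 12 not called did (Asns, Got1, Pycr1, Slc7a11 and Nupr1). The window holds only the stretch around the start, and nothing about ATF4 binding follows from these counts.

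In stem cells there was 1 array per genotype and hence no replicate check and no test, and the values compare 2 arrays. Of the 32 genes 30 were well above background on both. On the scale used here, the 7 stress regulators were all lower on the Rheb1-/- array, at a median of -0.53, while 36.8% of all genes were lower and the median over all genes was 0.13. The enzymes were lower in 3 of 14 (median 0.18) and the transporters in 3 of 9 (median 0.22). The 3 largest differences downward were Chac1 from -2.02 to -4.14, Glul from 4.63 to 3.54 and Trib3 from -0.38 to -1.42, and these 3 of the 30 were past 2-fold lower, against 6.28% of all genes. The 3 largest upward were Shmt2 from 2.47 to 3.18, Slc1a5, a glutamine carrier, from 2.91 to 3.49 and Psat1 from 1.95 to 2.44. None was past 2-fold higher, against 5.31% of all genes. Atf4 read 2.56 in wild type and 2.28 in Rheb1-/-.

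**Figure D4:**
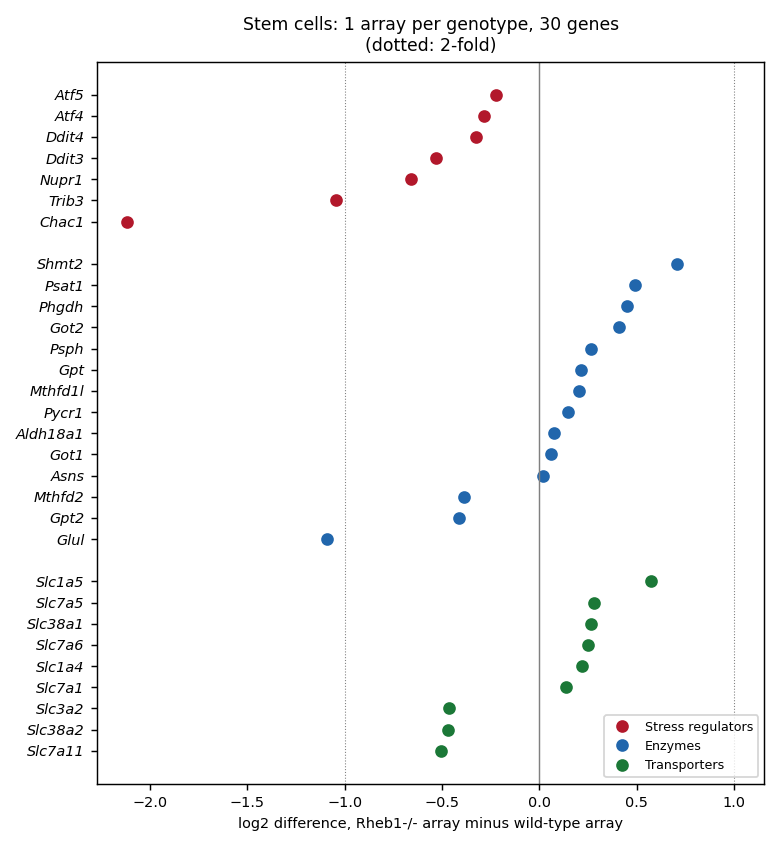
Difference between the Rheb1-/- and the wild-type stem cell array (log2, horizontal axis, 1 array per genotype, no error) for the 30 genes above background on both, coloured by role; dotted lines mark 2-fold. All 7 stress regulators lie left of 0, down to Chac1 at -2.12, and the highest point is Shmt2 at 0.71.

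Against the other arrays, both stem cell arrays lay above all 12 progenitor and myeloid arrays for Slc1a4 and Ddit4, and below all 12 for Asns, Mthfd2, Got1 and Atf5. Ddit4 read 3.55 and 3.22 in stem cells and at most 2.34 elsewhere, and Asns 2.41 and 2.43 against at least 2.84. Stem cell markers summed to 32.5 and 34.9 on these arrays, above all other groups. Progenitor markers summed to 555.2 in wild type and 812.4 in Rheb1-/-, T and NK cell markers to 34.9 and 45.4, and megakaryocyte markers to 21.3 and 21.6. The T and NK sum was mostly Nkg7, at a level of 4.94 in wild type and 5.40 in Rheb1-/-. In that list Cd8a (-1.90 to -3.63), Cd3g, Cd4, Lck and Zap70 were lower in Rheb1-/-, and Cd3e and Klrb1c were higher. Other lists had lower sums in Rheb1-/-. Erythroid markers summed to 77.3 in wild type and 13.1 in Rheb1-/-, and eosinophil and mast cell markers to 201.6 and 35.0. Monocyte markers summed to 219.1 and 97.4 and neutrophil markers to 1011 and 531.1. In wild type the erythroid sum was mostly Hba-a1 (6.13) and the eosinophil and mast cell sum mostly Prg2 (7.38). Gata1 of the erythroid list, Cpa3 and Gata2 of the eosinophil and mast cell list, and Ccr2 and F13a1 of the monocyte list were higher in Rheb1-/-. The part of these marker shifts in the differences above was not tested.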

How the data were processed

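Per the labels' protocols, 14 samples of total RNA were each hybridised, with Cy3, to an Agilent array of its own. The intensity analysed is the deposited processed signal. Background subtraction and spatial detrending had been done array by array in Agilent Feature Extraction, per the file headers (version 10.7.3.1 there, 9.1 in the submitters' processing notes). The authors' deposited value table is on a log2 scale, with every array at the same median (5.92), and served as an alternative.

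The members, roles and lists were chosen with earlier results of these data known. Control spots and outlier spots (79 to 195 per array) were left out, spots of a probe were averaged, log2 signals were set relative to the array's 75th percentile, and the brightest probe stood for a gene. Of 41174 probes, 27668 were named by accession, 5589 by symbol, 471 by an older symbol and 7446 by the file's own name. Genes had to be well above background on every array of at least 1 group. limma 3.58.1 in R 4.3.3 was fitted to the 12 progenitor and myeloid arrays, with one mean per group, 8 residual and 1.95 prior degrees of freedom, after a test on simulated data. Genes with values on every array are Atf4, Rheb and those called in a genotype comparison, the 12 largest where more passed; of the wider list, the 8 with the smallest p; in cell type comparisons, the 3 largest differences per role. Asns was added after its values were seen. Alternatives were normexp background, quantile normalization, the deposited table, mean of probes, other filters, slide or replicate number as a block, array weights, a trended prior and leaving out each array; the fit with the progenitors of 1 slide was chosen after seeing the data.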

Additional observations from a re-analysis of the deposited data

Results flagged for a closer look

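By the interaction test of limma, the genotype difference was called different in myeloid cells and progenitors for 6 genes. Slide and genotype cannot be told apart in the myeloid part of these values. For Chac1 the difference in myeloid cells minus that in progenitors was -1.43, with -0.85 in myeloid cells and 0.58 in progenitors. For Atf4 it was 0.99, with 0.63 and -0.36. For Phgdh it was 0.91, with 1.04 and 0.13. Those 3 calls held in 23 of 23 alternatives.

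For Aldh18a1 the interaction was 1.08, with 1.10 in myeloid cells and 0.02 in progenitors. Its call was lost on leaving out wild-type progenitor array 1 or 2, Rheb1-/- progenitor array 1 or 3, wild-type myeloid array 2, or Rheb1-/- myeloid array 2 or 3, at 1.00 to 1.10 and limma adjusted p of 0.054 to 0.067, and with normexp background correction, at 0.65 (0.0696). For Slc7a1 it was 0.62, with 0.67 and 0.05, and the call was lost without Rheb1-/- progenitor array 1 or Rheb1-/- myeloid array 3, at 0.61 and 0.57 (limma adjusted p of 0.0537 and 0.0513). As the mean of its probes the Slc7a1 interaction was 0.24 (limma adjusted p = 0.305). For Slc7a6 it was 0.61, with 0.69 and 0.08, and leaving out any array other than wild-type myeloid array 1 lost the call, at 0.48 to 0.68 and limma adjusted p of 0.0519 to 0.0996. The Slc7a6 interaction was 0.14 as the mean of its probes and 0.29 with normexp (limma adjusted p of 0.733 and 0.31). With no filter on dim genes Aldh18a1, Slc7a1 and Slc7a6 all missed the threshold (limma adjusted p of 0.063, 0.0565 and 0.0967).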

How the results depend on the processing

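In myeloid cells the calls of Atf4, Phgdh, Psph, Mthfd1l, Gpt2, Glul, Aldh18a1, Slc38a1, Chac1 and Ddit4 held in all 24 alternatives, and the number of genes was 9 to 11 higher and 4 to 5 lower when one array was left out. No alternative could tell slide from genotype in myeloid cells. The median of enzymes there was 0.10 with normexp, 0.056 with no filter and 0.077 to 0.39 when one array was left out (0.077 without wild-type array 3). Trib3 lost its call in 12 alternatives (adjusted p up to 0.135), Shmt2 in 2, and Slc7a1 and Slc7a6 in 1 each. In progenitors the count of lower genes was 0 with normexp, with slide as a fixed block, within slide 3, with only the 6 arrays of the cell type, and in the added fit with the progenitors of slide 3. Within slide 3 and with only those 6 arrays no gene of the whole array passed. The interaction count of higher genes was 3 with the mean of probes, 2 with no filter, 8 with slide as a random block, 9 with a trended robust prior, 2 in the added fit and 2 to 7 when one array was left out. It was 3 without wild-type progenitor array 1 or 2, Rheb1-/- progenitor array 3 or Rheb1-/- myeloid array 2, and 2 without Rheb1-/- progenitor array 1 or Rheb1-/- myeloid array 3. The interaction median of transporters was 0.25 with the mean of probes, and that of stress regulators -0.088 to 0.22 when one array was left out. The cell type difference of Slc38a2 in wild type was -0.03 at its brightest probe and 0.44 as the mean of its probes (limma adjusted p = 0.00335). The causes were not tested.

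Same-numbered samples did not deviate together (correlations of -0.15 to 0.13), so no pairing by number was seen, though these values cannot exclude one. With the replicate number as a block 9 genes were higher and 5 lower in myeloid cells, 1 was lower in progenitors, and 4 interactions were higher.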
